A study of Mus musculus with 127 samples.

Results

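The genes described here are 41 transcripts that cells make when they copy their DNA and divide. They were taken by name from the 23366 gene symbols of a bulk RNA sequencing study of mouse blood stem and progenitor cells, and all 41 were present in its table. Of these, 22 serve DNA synthesis (S phase) and 19 serve the preparation for division and division itself (G2 and M phase). The study asked how blood stem cells respond to inflammatory signals and whether age alters the response. No expression value entered the choice of the genes, but earlier results of these data were known when they were chosen.

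Cells were sorted from bone marrow of 4 young and 2 old mice into the long-term (LT) and short-term (ST) haematopoietic stem cell fractions and the multipotent progenitor (MPP) fraction. Young mice 1, 2 and 3 and old mouse 2 gave cells that were cultured with the Toll-like receptor ligands LPS at 100 ng/ml and Pam3csk4 at 1 ug/ml and collected at 0, 0.5, 1, 2, 4, 8 and 12 h. Young mouse 4 and old mouse 4 gave cells cultured in the same medium without ligand and collected at 0, 2, 4 and 8 h. No mouse gave both courses, so a difference between ligand and no ligand cannot be told apart from a difference between mice. The labels give age only as young or old, and no genetic alteration.

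A cell that prepares to copy its DNA loads the MCM helicase onto replication origins, with Cdc6 and Cdt1 as loaders, and then fires those origins. E2F transcription factors drive most genes of this step, and retinoblastoma family proteins hold them back in resting cells. Genes for mitosis come on later, through the MuvB complex with B-Myb and FoxM1, and their products include cyclin B, its kinase Cdk1, and the spindle. Long-term stem cells of adult marrow are mostly quiescent and divide rarely, whereas multipotent progenitors divide often. Bulk RNA gives an average over cells, so fewer cycling cells and less of these transcripts per cycling cell cannot be told apart.

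The 22 S phase genes fall into 5 roles. They are the helicase subunits Mcm2, Mcm3, Mcm4, Mcm5, Mcm6 and Mcm7; the licensing and firing factors Cdc6, Cdt1 and Gins2; the fork proteins Pcna (the sliding clamp), Pola1 and Prim1 (DNA polymerase alpha and its primase), Fen1 and Lig1 (joining of the lagging strand), Rfc4 (clamp loading) and Uhrf1 (copying of DNA methylation). The nucleotide supply genes are Rrm1 and Rrm2 (ribonucleotide reductase), Tyms and Tk1 (thymidine), and the E cyclins are Ccne1 and Ccne2. The 19 G2 and M genes fall into 4 roles. Mki67 and Top2a mark cycling cells. Ccna2, Ccnb1, Ccnb2 and Cdk1 are the A and B cyclins and their kinase. Aurka, Aurkb, Plk1, Bub1, Bub1b, Cdc20 and Birc5 are mitotic kinases, checkpoint proteins and their partners. Cenpe, Cenpf, Kif11, Kif23, Tpx2 and Nusap1 build the spindle and kinetochore.

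The promoters of the 2 sets carry different letters, and 5 are printed as examples: windows with E2F-like letters (Mcm3, Mcm6), with CHR letters (Cdk1, Plk1) and with neither (Ccnb1). Motif content was not compared with the changes in culture. RefSeq windows on mouse build GRCm38.p6, running from 250 bases before to 50 bases after the start of transcription, were found for 35 of the 41 genes. These are reference sequence, not data of the study, and each is given 5′ to 3′ on the gene's strand. Capitals mark 3 motifs searched on both strands: an E2F-like motif (TTTCCCGC, TTTCGCGC, TTTGCCGC or TTTGGCGC), the CHR element bound by MuvB (TTTGAA), and the CCAAT box (CCAAT). Mcm3 lies at chr1:20820263-20820562 and Mcm6 at chr1:128359656-128359955, both on the minus strand; Ccnb1 lies at chr13:100786437-100786736 and Cdk1 at chr10:69352863-69353162, both on the minus strand; Plk1 lies at chr7:122159185-122159484 on the plus strand.
Mcm3: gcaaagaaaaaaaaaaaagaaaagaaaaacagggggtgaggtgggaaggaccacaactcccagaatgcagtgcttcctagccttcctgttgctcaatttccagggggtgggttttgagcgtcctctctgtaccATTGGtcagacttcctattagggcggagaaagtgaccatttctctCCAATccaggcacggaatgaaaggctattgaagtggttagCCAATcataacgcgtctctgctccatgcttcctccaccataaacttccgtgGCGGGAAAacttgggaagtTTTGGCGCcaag
Mcm6: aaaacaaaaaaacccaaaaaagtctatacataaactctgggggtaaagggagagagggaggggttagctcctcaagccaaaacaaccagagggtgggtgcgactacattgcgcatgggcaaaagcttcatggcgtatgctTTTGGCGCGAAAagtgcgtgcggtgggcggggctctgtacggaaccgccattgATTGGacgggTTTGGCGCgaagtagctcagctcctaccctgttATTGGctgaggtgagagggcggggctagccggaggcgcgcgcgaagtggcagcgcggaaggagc
Ccnb1: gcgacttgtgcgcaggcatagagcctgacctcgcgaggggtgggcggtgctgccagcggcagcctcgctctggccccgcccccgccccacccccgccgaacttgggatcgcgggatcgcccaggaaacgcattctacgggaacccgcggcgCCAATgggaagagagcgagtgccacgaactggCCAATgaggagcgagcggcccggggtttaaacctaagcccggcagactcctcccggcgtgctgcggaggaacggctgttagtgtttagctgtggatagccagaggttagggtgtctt
Cdk1: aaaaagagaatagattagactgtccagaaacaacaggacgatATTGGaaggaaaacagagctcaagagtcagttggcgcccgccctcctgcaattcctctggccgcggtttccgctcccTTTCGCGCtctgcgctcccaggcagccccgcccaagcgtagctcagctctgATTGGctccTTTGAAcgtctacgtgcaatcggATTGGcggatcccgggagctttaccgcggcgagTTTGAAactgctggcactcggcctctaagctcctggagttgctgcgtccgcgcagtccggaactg
Plk1: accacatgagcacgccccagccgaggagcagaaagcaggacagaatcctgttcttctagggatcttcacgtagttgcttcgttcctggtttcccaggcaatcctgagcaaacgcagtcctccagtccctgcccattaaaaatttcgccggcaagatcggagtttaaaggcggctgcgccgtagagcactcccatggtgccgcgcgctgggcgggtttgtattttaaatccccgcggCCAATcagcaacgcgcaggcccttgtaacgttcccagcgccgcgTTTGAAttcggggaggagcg
The Mcm3 window holds E2F-like matches whose first bases lie 20 and 39 bases after the start. The Mcm6 window holds 3, at 110, 106 and 47 bases before the start, and the first and second overlap. Cdk1 carries CHR letters at 71 and 15 bases before the start and an E2F-like match at 131 bases before it. Plk1 carries CHR letters at 31 bases after the start, while Ccnb1 shows CCAAT letters only. Over all windows of S phase members, 37.5% of 24 held an E2F-like match, against 6.25% of the 16 G2 and M windows (that of Cdk1) and 2.81% of the 19841 windows of all genes in the file. CHR letters were present in 68.8% of the G2 and M windows, in 8.33% of the S phase windows and in 15.3% of all windows. The CCAAT box was in 87.5%, 54.2% and 38.1% of these windows in the same order. A match describes the letters only, and binding was not measured.

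After technical repeats were added up, 108 libraries remained (75 from young and 33 from old mice), with totals of 990831 to 11764593 counts and a median of 4200703. All 41 genes passed the filter on low counts in every fit, and 9 of them had counts in all 108 libraries. Levels are given as CPM, counts per 1000000 counts of the library, and are compared between samples and never between genes, because transcript lengths were not used. Transcripts of mature neutrophils were abundant in the sorted fractions of 5 mice: the summed level of 6 neutrophil genes at 0 h was 31247 to 62289 CPM in LT of young mice 1, 2 and 4, against 240 CPM in LT of young mouse 3. In that mouse's LT, 6 LT marker genes summed to 1477 CPM, against 67.4 to 499 CPM in young mice 1, 2 and 4. In LT of old mouse 2 they summed to 1172 CPM. Of 5 T and NK cell markers, 4 stood at 0 in LT and ST of young mouse 3 and 1 in its MPP. The LT, ST and MPP libraries of young mouse 3 therefore stand apart from the others in their neutrophil transcripts. Some of the results that rest on them, but not all, are also given without them.

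Before culture, the S phase genes were about as abundant in LT as in MPP in some mice and far less abundant in others. Their summed level in LT was 4637, 4298, 2707 and 4121 CPM in young mice 1 to 4 and 2698 and 5297 CPM in old mice 2 and 4. In ST it was 3114, 3441, 2064 and 3873 CPM in young mice and 3065 and 5295 CPM in old mice. MPP held 4418, 5117, 5527 and 4252 CPM in young mice and 4838 and 5543 CPM in old mice. ST lay below MPP in all 6 mice, and LT lay below MPP in 5 of 6, with young mouse 1 as the exception. The widest gaps were in young mouse 3, where LT held 49.0% and ST 37.4% of the level in MPP.

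G2 and M genes varied more. Summed over 19 genes, LT held 3354, 2483, 774 and 2760 CPM in young mice 1 to 4, ST held 3361, 2234, 400 and 3069 CPM, and MPP held 3013, 2839, 2642 and 3254 CPM. MPP was thus the steadiest fraction, at 2937 ± 260 CPM (SD, n = 4 young mice), against 2343 ± 1107 CPM in LT and 2266 ± 1333 CPM in ST. As a share of its own MPP level, LT stood at 111%, 87.4%, 29.3% and 84.8% in young mice 1 to 4, and at 56.4% and 77.8% in old mice 2 and 4. ST stood at 112%, 78.7%, 15.1% and 94.3% in young mice and at 47.3% and 91.7% in old mice. The lowest shares came from the mouse whose fractions had the fewest neutrophil transcripts, young mouse 3, and the next lowest from old mouse 2. In LT and ST the neutrophil level of old mouse 2, 19047 and 22034 CPM, also lay between that of young mouse 3 and those of young mice 1, 2 and 4. Old mouse 4 had a lower neutrophil level, 16764 to 18325 CPM over its 3 fractions, and higher shares than old mouse 2. The order by neutrophil genes thus did not hold through all mice. Primary granule genes (Mpo, Elane, Prtn3 and Ctsg) gave another order. Their sum in LT and ST was lowest in young mouse 3 (123 and 358 CPM), then old mouse 2 (3504 and 4327 CPM). It was highest in old mouse 4 (19734 and 16897 CPM), whose LT share was nevertheless below those of young mice 1, 2 and 4. The part of other cells in these shares was not tested.

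**Figure D1:**
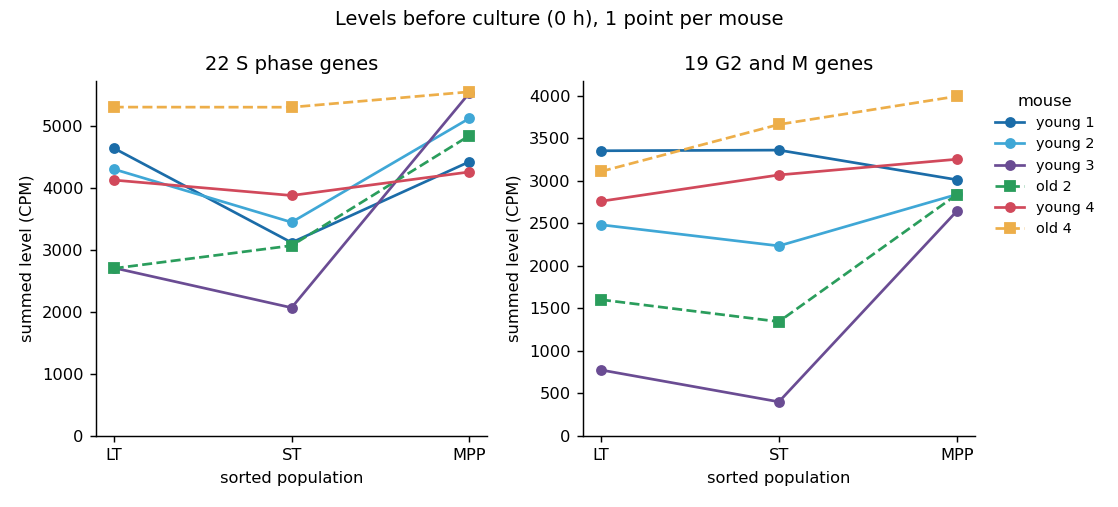
Summed level in CPM of the 22 S phase genes (left) and the 19 G2 and M genes (right) before culture, by sorted population, with 1 line per mouse (dashed for old mice). Young mouse 3 lies lowest in ST in both panels, at 2064 and 400 CPM, and close to the other mice in MPP for the G2 and M genes.

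Single genes showed the same layout. Top2a, the topoisomerase of dividing cells, stood in LT at 595, 300, 159 and 452 CPM in young mice 1 to 4, and in MPP at 451, 502, 520 and 439 CPM. Mki67 stood in ST at 171, 131, 26.8 and 250 CPM and in MPP at 208, 163, 198 and 211 CPM. Young mouse 3 had the lowest value outside MPP in both genes, and the populations overlapped. Mcm6 was more even: LT held 575, 488, 564 and 437 CPM, ST 388, 538, 341 and 344 CPM, and MPP 510, 714, 938 and 407 CPM. Its ST values lay below MPP in each of these mice, by a fitted log2 difference of -0.66 (SE 0.27, edgeR adjusted p = 1).

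**Figure D2:**
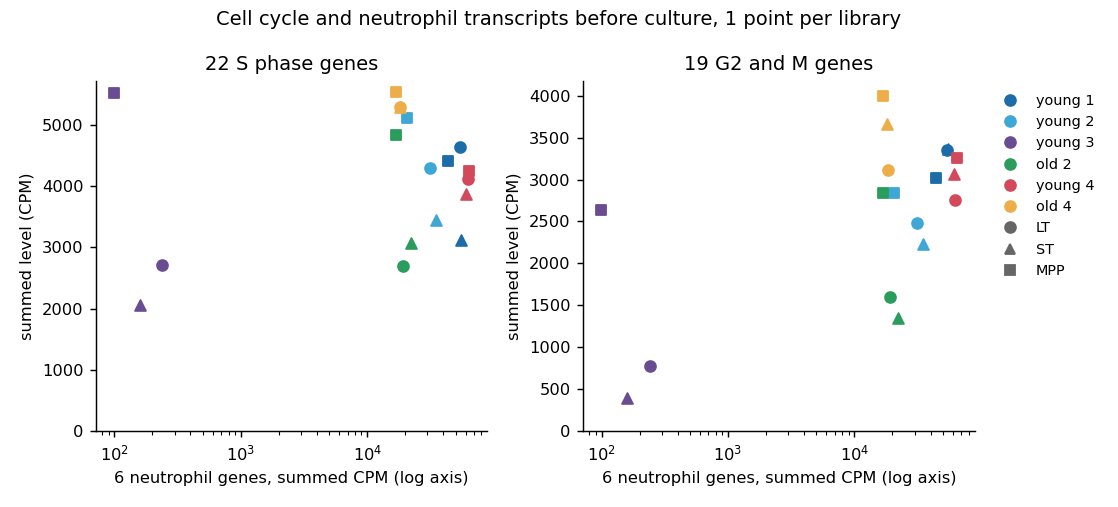
Summed level of the S phase genes (left) and of the G2 and M genes (right) before culture, in CPM, against the summed level of 6 neutrophil genes in the same library, in CPM on a log axis, with 1 point per library, colour for mouse and shape for population. The 3 libraries of young mouse 3 lie alone at the left, at 240 CPM of neutrophil genes or less, and its MPP library has 5527 CPM of S phase genes, near the highest.

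edgeR's quasi-likelihood test, fitted on the 12 young libraries of this time, called none of the 41 genes between any of the populations, and none of the 11568 genes tested was called (0% for LT against MPP, 0% for LT against ST, 0% for ST against MPP). At an unadjusted p below 0.05 there were 2, 0 and 7 members, against 2.65%, 2.79% and 1.00% of all genes, and DESeq2 called 0 members in each. The 7 members of ST against MPP were Mcm7, Mcm4, Gins2, Mcm6, Pola1, Mcm3 and Fen1, all S phase genes and all lower in ST. The median log2 difference of ST from MPP was -0.66 over the S phase genes and -0.35 over the G2 and M genes, beside 0.01 over all genes. Without young mouse 3, the median over the 41 genes moved from -0.53 to -0.28, none of the 7 kept a p below 0.05, and for LT against MPP it moved from -0.31 to -0.12. Replicates within a population are separate animals, but each mouse gave all 3 populations and this fit had no term for mouse. Its p-values therefore do not use that pairing. With the mouse as a replicate block, the count of called members was also 0.

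No difference with age passed a test at 0 h. Old LT held 3997 ± 1838 CPM of S phase genes (SD, n = 2) and young LT 3941 ± 850 CPM (n = 4), and for G2 and M genes 2356 ± 1067 and 2343 ± 1107 CPM. Old MPP held 3416 ± 818 CPM of G2 and M genes and young MPP 2937 ± 260 CPM. In LT the old mice, at 2698 and 5297 CPM of S phase genes, lay on either side of all young mice. edgeR on 18 libraries called 0 members in LT, ST and MPP, with 0 at an unadjusted p below 0.05 in each, and DESeq2 also called 0; of 12983 genes, 0%, 0% and 0% were called. With 2 old mice, a difference of the size of the spread between mice was not detectable.

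In culture with the ligands, the S phase transcripts lay lower at 8 h than at 0 h in every population of every mouse. The 8 h level as a share of the 0 h level in LT was 23.7%, 36.2% and 43.7% in young mice 1, 2 and 3 and 32.4% in old mouse 2. In ST it was 36.4%, 43.6%, 46.9% and 57.9%, and in MPP 39.1%, 29.4%, 40.9% and 46.4%. By 12 h LT stood at 18.3%, 29.8%, 34.0% and 25.8%, the lowest shares of the 3 populations in 4 of 4 mice. At 2 h the S phase level in MPP was already at 60.1%, 59.4%, 53.2% and 70.5%. ST was less even at 2 h: young mouse 3 was at 38.4%, while young mouse 1 was at 106.5% and still at 86.7% at 4 h.

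G2 and M transcripts took another course. In MPP they stood at 61.9%, 50.1%, 37.2% and 54.1% of the 0 h level at 2 h in young mice 1, 2 and 3 and old mouse 2. At 8 h they stood at 64.2%, 54.4%, 80.2% and 61.8%, higher than at 2 h in 4 of 4 mice. At 12 h they stood at 58.4%, 41.0%, 63.9% and 62.5%, below the 8 h share in young mice 1, 2 and 3 and below the 2 h share in young mice 1 and 2, so the rise after 2 h did not last to the end of the course in those 2 mice. ST also had low shares at 2 h, 48.4%, 51.0%, 28.5% and 53.9%. They were higher than at 2 h in 4 of 4 mice at 4 h (51.7%, 63.1%, 51.9% and 76.9%) and at 12 h (62.2%, 58.2%, 72.8% and 71.7%), and at 8 h in each mouse but young mouse 2 (44.0%). The 12 h value of young mouse 3 came from an ST library of 990831 counts, where 21 of the 41 members were detected. Its median G2 and M change on the log2(CPM + 1) scale was -1.84 at 2 h and -3.01 at 12 h, so its higher sum was not matched by its median. LT mice went different ways: the 8 h share was lowest in old mouse 2 (32.7%) and highest in young mouse 2 (80.6%), and by 12 h young mouse 1 stood at 24.7% and young mouse 3 at 79.2%.

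**Figure D3:**
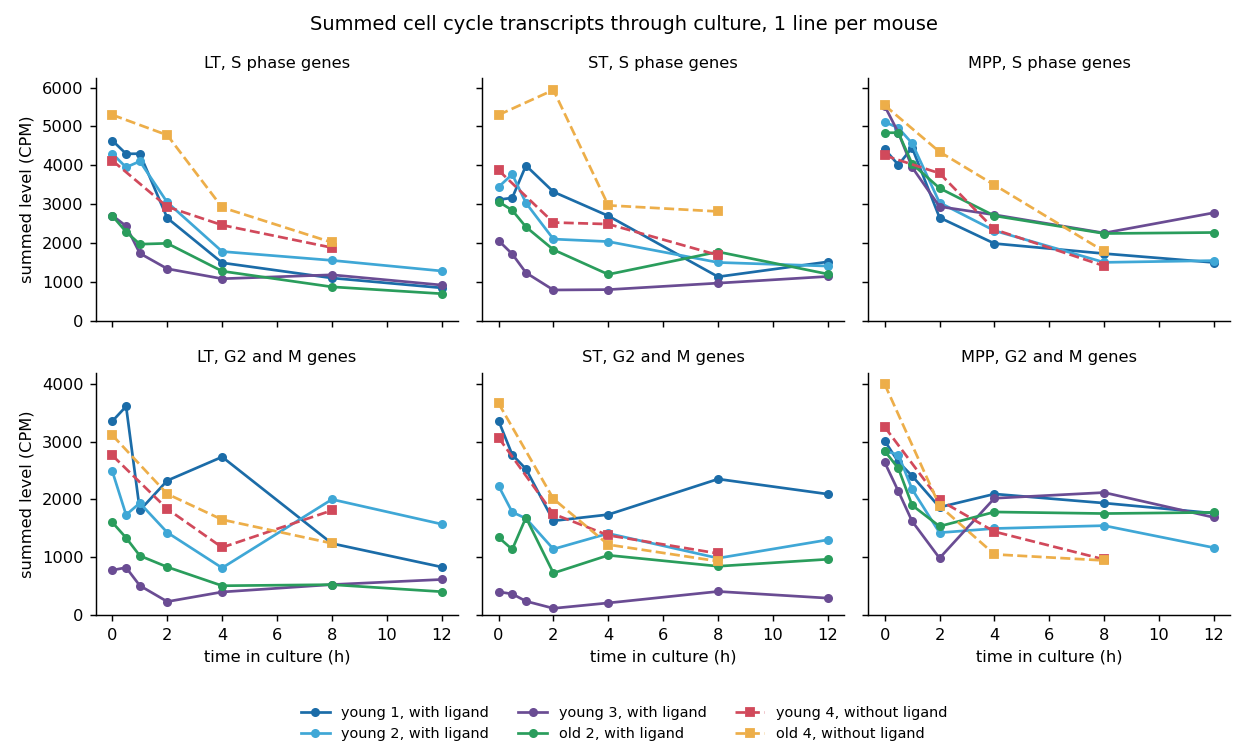
Summed level in CPM of the S phase genes (top) and the G2 and M genes (bottom) against time in culture in hours, for LT, ST and MPP, with 1 line per mouse, solid with ligand and dashed without. S phase levels end below their 0 h value in every line; in MPP the G2 and M level of the ligand course is higher at 8 h than at 2 h, whereas both dashed lines end below 1000 CPM.

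In LT at 12 h and MPP at 8 h, the medians over genes within each mouse gave the same picture on the scale of log2(CPM + 1). In LT at 12 h the median change of the S phase genes was -3.86, -2.70, -1.87 and -1.90 in young mice 1, 2 and 3 and old mouse 2, beside -0.36, -0.76, 0.00 and -0.03 over the 10263 genes with a mean of at least 5 CPM. In these LT libraries 31, 32, 38 and 40 of the 41 members were detected, after 41, 41, 40 and 41 at 0 h. The 2 largest declines thus came from the libraries with the most members listed at 0. In MPP at 8 h it was -1.52, -1.86, -1.41 and -1.25, beside -0.53, -0.25, -0.18 and -0.08. All 22 S phase genes were lower at 8 h in MPP of each of the 3 young mice and 21 of 22 in old mouse 2. The G2 and M medians in MPP at 8 h were -0.80, -0.94, -0.33 and -0.73. Since the median of all genes was itself below 0, each change is to be read against it.

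Genes of DNA synthesis were lower late in the LT course. Mcm6 stood at 575, 488 and 564 CPM at 0 h and at 77.5, 295 and 198 CPM at 8 h in young mice 1, 2 and 3, and went from 335 to 131 CPM in old mouse 2, without overlap. Pcna went from 175, 224 and 77.6 CPM to 57.5, 11.5 and 42.9 CPM at 12 h. Tyms stood at 130, 70.9 and 52.0 CPM at 0 h and at 3.01, 1.04 and 11.8 CPM at 12 h. Fitted changes of these were -1.47 (SE 0.54, edgeR adjusted p = 0.328) for Mcm6 at 8 h, -1.98 (SE 0.60, adjusted p = 0.229) for Pcna at 12 h and -3.93 (SE 1.13, adjusted p = 0.193) for Tyms at 12 h, none past the threshold of 0.05. Ccne1, the cyclin that opens S phase, was at 100 and 34.0 CPM in young mice 1 and 2 and at 0 in young mouse 3 at 0 h, and was listed at 0 in all 3 at 12 h.

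Of the 19 mitotic genes in LT, 8 were lower at 8 h in all 4 mice with ligand, beside 20.1% of all genes: Mki67, Top2a, Ccnb2, Bub1, Cenpe, Kif11, Kif23 and Birc5. Bub1, a kinase of the spindle checkpoint, stood at 74.0, 20.1 and 17.2 CPM at 0 h in young mice 1, 2 and 3 and was listed at 0 in all 3 at 8 h, and it went from 30.1 to 1.06 CPM in old mouse 2. In these 8 h LT libraries 30, 30 and 39 of the 41 members were detected in young mice 1, 2 and 3, and 40 in old mouse 2. A listing at 0 there may thus be a limit of detection. Bub1 was not called (edgeR adjusted p = 0.204), and its fitted change, which depends on the prior count, is not given. Top2a went from 595, 300, 159 and 241 CPM to 233, 144, 66.3 and 95.5 CPM in young mice 1, 2 and 3 and old mouse 2, lower in each mouse with overlapping groups. Other mitotic genes differed between mice. Ccnb1 at 8 h stood at 67.9, 254 and 52.8 CPM, after 150, 191 and 23.0 CPM at 0 h, so it was higher in young mice 2 and 3 and lower in young mouse 1.

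In ST, Mcm6 again went down in each mouse. It went from 388, 538 and 341 CPM to 53.2, 207 and 155 CPM at 8 h, with a fitted change of -1.52 (SE 0.54, adjusted p = 0.497). Plk1, the kinase that drives entry into mitosis, went from 105, 110 and 12.7 CPM to 70.5, 0.185 and 20.1 CPM, with no common direction. Rrm2 went from 217, 223 and 21.9 CPM to 223, 98.1 and 23.0 CPM, so that a decline was seen in 1 of the 3 young mice.

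Fitted on the 63 young libraries of the 3 populations together, edgeR called none of the 41 genes at 2, 8 or 12 h in any population. Of 13678 genes, it called 0.307%, 0.285% and 0.241% in LT at these times, 0.307%, 0.263% and 0.446% in ST, and 0.263%, 0.314% and 0.314% in MPP. At an unadjusted p below 0.05, LT had 2, 12 and 13 members (all genes: 9.54%, 11.3% and 9.19%), ST had 2, 4 and 5 (6.80%, 7.91% and 14.1%), and MPP had 0, 3 and 4 (3.19%, 4.15% and 4.38%). In LT all 12 at 8 h and all 13 at 12 h lay lower than at 0 h. DESeq2 called 1, 4 and 6 members in LT, 1, 0 and 4 in ST and none in MPP at any of these times. The share of all genes called by DESeq2 is not given here or below, so its counts of members stand without that base. Once young mouse 3, whose libraries stand apart, was left out, edgeR called 2 members in LT at 8 h and 1 at 12 h, and without young mouse 1 it called 1 in ST at 12 h. The change in LT was not shown to differ from that in MPP: at 8 h edgeR called 0 members and 0% of all genes for the difference, 1 member had an unadjusted p below 0.05, and DESeq2 called 1.

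At 0 h the sums varied less between young mice in MPP than in LT and ST, and the fit above gives all 3 populations 1 shared spread. An added fit of the 21 young MPP libraries alone, chosen after seeing the data, called 11 of the 41 genes lower at 8 h, where 0.764% of 12306 genes were called lower. All 11 were S phase genes, from 22, and none of the 19 G2 and M genes was called. The median log2 change was -1.38 over the S phase genes and -0.38 over the G2 and M genes, beside -0.10 over all genes. LT and ST fitted alone in the same way gave 0 called members at each of these times, with 1, 7 and 5 and with 3, 3 and 5 members at an unadjusted p below 0.05. Shares over all genes are not given for LT and ST fitted alone, so their counts cannot be set against those of MPP.

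All 6 helicase subunits were lower at 8 h in MPP of each mouse with ligand, and 4 of them were called. Mcm7 stood at 472, 557 and 613 CPM at 0 h and at 133, 191 and 197 CPM at 8 h in MPP of young mice 1, 2 and 3, and went from 541 to 177 CPM in old mouse 2. No 8 h value reached a 0 h value, and the fitted change was -1.41 (SE 0.30, edgeR adjusted p = 0.0111). Mcm6 went from 510, 714 and 938 CPM to 155, 166 and 338 CPM and fell by 1.48 on the log2 scale (SE 0.35, adjusted p = 0.0236). Mcm5 fell by 0.99 and Mcm2 by 1.38, while Mcm3 (-1.23, adjusted p = 0.0766) and Mcm4 did not pass. Cdt1, which loads the helicase, went from 135, 107 and 133 CPM to 46.5, 40.8 and 32.5 CPM and fell by 1.37 (adjusted p = 0.0276); Cdc6 and Gins2 were lower but not called.

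Fork and nucleotide genes followed. Prim1, the primase subunit, had the smallest adjusted p of all members, 0.00202, with 67.9, 78.8 and 87.4 CPM at 0 h and 14.8, 17.5 and 26.6 CPM at 8 h, a change of -1.75 (SE 0.29). Lig1, the ligase that seals lagging strand fragments, fell by 1.90 (SE 0.47), Uhrf1 by 1.69 (SE 0.39) and Pcna by 1.14 (SE 0.31, adjusted p = 0.0488). Pcna was late: it stood at 204, 219 and 164 CPM at 0 h, at 233, 241 and 119 CPM at 2 h and at 82.1, 75.1 and 64.5 CPM at 8 h. Tk1, the salvage enzyme for thymidine, went from 87.9, 111 and 96.1 CPM to 29.4, 13.6 and 22.7 CPM and fell by 1.89 (SE 0.44), and Tyms fell by 1.38 (SE 0.30). Rrm2, by contrast, stood at 379, 285 and 138 CPM at 0 h and at 353, 121 and 75.3 CPM at 8 h, with a fitted change of -0.24 that was not called.

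The mitotic genes in the same libraries moved less. Ccnb1, cyclin B, stood at 198, 153 and 110 CPM at 0 h and at 210, 133 and 154 CPM at 8 h, with overlapping groups. Top2a stood at 451, 502 and 520 CPM and then at 286, 240 and 437 CPM. Cdk1 went from 167, 173 and 154 CPM to 78.8, 103 and 112 CPM, without overlap, but its fitted change of -0.52 was not called. Plk1 stood at 132, 74.0 and 67.2 CPM and then at 80.4, 61.8 and 76.5 CPM.

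**Figure D4:**
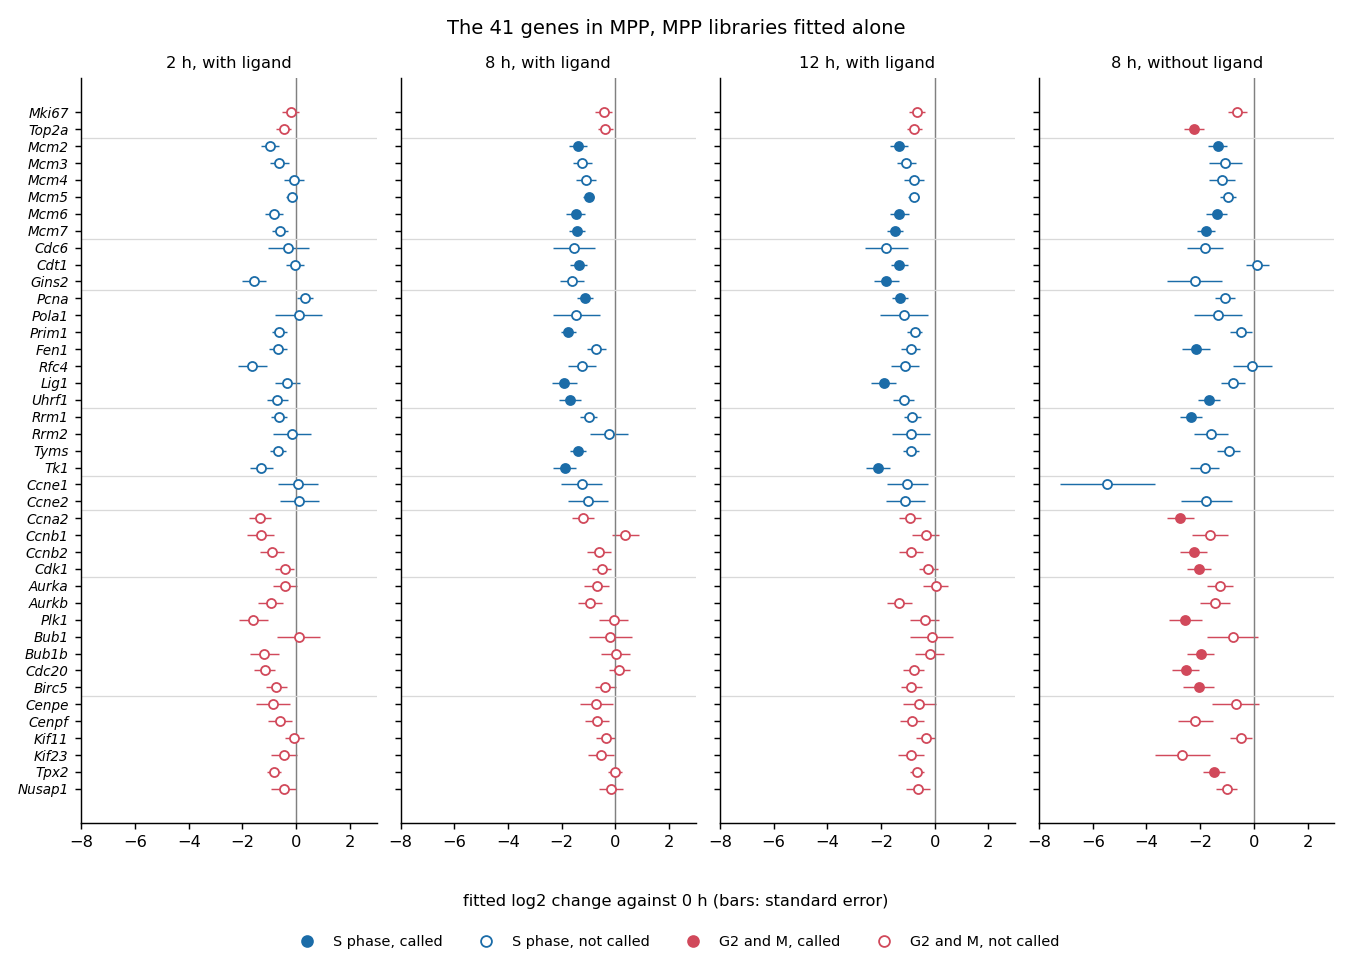
Fitted log2 change against 0 h with its standard error for each of the 41 genes in MPP libraries fitted alone, at 2, 8 and 12 h with ligand and at 8 h without ligand. Blue stands for S phase and red for G2 and M, and filled points passed an edgeR adjusted p of 0.05: 0, 11, 8 and 15 genes in the 4 panels, with red filled points only in the panel without ligand.

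At 12 h the MPP fit called 8 members lower, where 0.666% of all genes were called lower: Mcm7 (-1.49), Tk1 (-2.12), Pcna (-1.28), Lig1 (-1.90), Cdt1 (-1.31), Gins2 (-1.80), Mcm2 (-1.34) and Mcm6 (-1.31). At 2 h it called 0, beside 0.423% of all genes, with 14 members at an unadjusted p below 0.05, and DESeq2 called 7. Each mouse weighed heavily: without young mouse 1, 2 or 3 in turn, the 8 h count was 8, 0 and 2 and the 12 h count 3, 0 and 4. With the mouse as a replicate block, which pairs the samples of 1 animal, the counts rose to 8 at 2 h, 16 at 8 h and 13 at 12 h, against 1.71%, 2.92% and 2.8% of all genes called lower. The 8 called at 2 h with the block were Ccna2, Ccnb1, Plk1 and Cdc20 of the mitotic genes and Mcm6, Mcm2, Mcm7 and Tk1 of the S phase genes. At 8 h the block added Ccna2, Gins2, Mcm3, Mcm4 and Rrm1.

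In the course with ligand, the block called the mitotic genes Ccnb1, Plk1 and Cdc20 at 2 h, as given above. Ccna2, Birc5 and Aurkb were also called at some times when the block was used. Ccna2 (cyclin A) stood in MPP at 275, 235 and 194 CPM at 0 h, at 103, 61.3 and 57.8 CPM at 2 h, at 56.5, 106 and 99.0 CPM at 8 h and at 102, 114 and 97.4 CPM at 12 h. With the block it was called at 2 h (-1.39, SE 0.32, edgeR adjusted p = 0.0114) and 8 h (-1.12, SE 0.32, adjusted p = 0.0346) and not at 12 h. Birc5 (survivin), a partner of Aurkb in the chromosomal passenger complex, stood at 157, 171 and 103 CPM at 0 h and at 87.8, 56.2 and 51.2 CPM at 12 h. Both Birc5 (-0.89, SE 0.25, adjusted p = 0.036) and Aurkb (-1.40, SE 0.40, adjusted p = 0.0363) were called at 12 h with the block, and neither was without it. Cdca8, another subunit of that complex, was not called with ligand.

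Between 2 and 8 h a few mitotic genes were higher and a few S phase genes lower in MPP. This comparison was added after seeing the data. Ccnb1 stood at 91.8, 36.4 and 20.2 CPM at 2 h and at 210, 133 and 154 CPM at 8 h in MPP of young mice 1, 2 and 3, without overlap, and old mouse 2 went from 49.4 to 120 CPM. Plk1 stood at 31.1, 28.7 and 13.3 CPM and then at 80.4, 61.8 and 76.5 CPM. Cdc20, which activates the anaphase ubiquitin ligase, went from 80.7, 44.2 and 42.1 CPM to 199, 92.1 and 135 CPM. With the mouse as a block, edgeR called Ccnb1 (1.84, SE 0.35, adjusted p = 0.0055), Plk1 (1.61, adjusted p = 0.0421) and Cdc20 (1.32, adjusted p = 0.0322) higher at 8 than at 2 h, where 2.53% of all genes were called higher. It called Pcna (-1.44), Cdt1 (-1.35), Mcm5 (-0.83), Mcm7 (-0.79) and Prim1 (-1.12) lower, where 2.68% were called lower. Without the block only Pcna was called (-1.46, adjusted p = 0.0316), beside 0.423% of genes higher and 0.276% lower, and it was not called with any of the 3 mice left out. The 3 mitotic genes were higher in 3 of 3 young mice either way. They do not stand for the whole set: with the block 7 of the 19 G2 and M members had a fitted change below 0, with a median of 0.27, and of the 22 S phase members 21 did, with a median of -0.81. The 28 further G2 and M genes split into 14 lower and 14 higher (median 0.00), with Stmn1 and Cdca5 called lower and Ube2c higher.

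In MPP cultured without ligand the G2 and M genes went down along with the S phase genes. The S phase sum at 8 h was 33.2% of the 0 h level in young mouse 4 and 32.2% in old mouse 4, and the G2 and M sum 29.5% and 23.6%. Top2a went from 439 and 564 CPM to 111 and 63.2 CPM, Ccna2 from 278 and 348 CPM to 43.7 and 32.7 CPM, and Cdc20 from 244 and 190 CPM to 26.0 and 35.6 CPM. Mki67 moved less, from 211 and 366 CPM to 143 and 162 CPM. All 19 G2 and M genes were lower in both mice, where 46.3% of the 10263 genes with a mean of at least 5 CPM were lower in both; 21 of the 22 S phase genes were. In LT 12 of 19 and 16 of 22 were lower in both (39.5% of all genes), and in ST 17 of 19 and 17 of 22 (39.8%). The LT sums did not go together in young mouse 4: its G2 and M share was 42.3% at 4 h and 65.6% at 8 h, while its S phase share went from 59.7% to 45.7%.

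The stem cell fractions without ligand showed the S phase decline as well. Mcm6 went in LT from 437 and 644 CPM to 87.8 and 194 CPM and Pcna from 124 and 215 CPM to 30.1 and 54.0 CPM. Fitted changes were -1.78 (SE 0.59, edgeR adjusted p = 0.321) and -1.84 (SE 0.63, adjusted p = 0.345), so neither passed. Of the G2 and M genes in ST, Ccna2 went from 216 and 323 CPM to 23.3 and 9.25 CPM, with a fitted change of -3.78 (SE 1.28, edgeR adjusted p = 0.357). Cdk1 went from 182 and 165 CPM to 26.0 and 29.0 CPM, and Plk1 from 182 CPM to 11.1 CPM in young mouse 4 and from 176 CPM to 0 in old mouse 4. Both mice moved the same way in each of these genes, which the test did not call.

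edgeR on MPP alone (24 libraries of all 6 mice) called 15 members lower at 8 h without ligand, where 3.37% of 12875 genes were called lower. They comprised 9 G2 and M genes, led by Top2a (-2.23, SE 0.37, adjusted p = 0.00167), Ccna2 (-2.74, SE 0.49, adjusted p = 0.00274) and Cdc20 (-2.54, SE 0.50, adjusted p = 0.00579), with Cdk1, Ccnb2, Plk1, Bub1b, Tpx2 and Birc5. The 6 S phase genes were Rrm1 (-2.36), Mcm7 (-1.80), Uhrf1 (-1.67), Fen1 (-2.15), Mcm2 (-1.36) and Mcm6 (-1.39). The count was 24 with the mouse as a block (6.1% of all genes), 5 without young mouse 4 and 13 without old mouse 4. On the 3 populations together (72 libraries), edgeR called 0 members in LT, ST and MPP, beside 0.201%, 0.236% and 0.236% of 14401 genes; 4, 3 and 8 had an unadjusted p below 0.05, and DESeq2 called 2, 1 and 1. LT and ST fitted alone gave 0 called members each, with 2 and 2 at an unadjusted p below 0.05, again without a share over all genes to set beside them.

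The 8 h change was then set against ligand, over 4 mice with it and 2 without. In MPP, Cdc20 changed by values between -0.79 and 0.26 on the log2(CPM + 1) scale with ligand and between -3.18 and -2.39 without, so the groups did not overlap. For Top2a the changes lay between -1.06 and -0.25 with ligand and between -3.14 and -1.98 without. Of the 19 G2 and M genes, 12 had changes with ligand that all lay above those without, and none lay the other way, where 18.9% of all genes lay above in this manner. They were Top2a, Ccna2, Ccnb1, Ccnb2, Cdk1, Plk1, Bub1b, Cdc20, Cenpf, Kif23, Birc5 and Tpx2, and the other 7 overlapped. Of the 22 S phase genes 4 lay above, Rrm1, Rrm2, Fen1 and Ccne1, a share near that of all genes, and 2 below, Cdt1 and Rfc4, where 11.7% of all genes lay below. Mcm6 was alike in both courses, going from 407 and 584 CPM to 147 and 161 CPM without ligand. With ligand, 14 of 19 G2 and M genes and 21 of 22 S phase genes were lower at 8 h in all 4 mice, beside 32% of all genes.

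The mice of the courses also began apart. At 0 h in MPP the G2 and M sum was 3254 and 3994 CPM in the mice later cultured without ligand, above the 2642 to 3013 CPM of the 4 mice with it, and at 8 h it was 960 and 943 CPM against 1545 to 2118 CPM. The sum of mitotic kinases and checkpoint genes stood at 1064 and 1173 CPM against 695 to 842 CPM at 0 h, that of spindle genes at 679 and 853 CPM against 642 to 654 CPM, and that of nucleotide supply at 998 and 1154 CPM against 659 to 884 CPM. Of the 19 G2 and M genes, 12 were higher at 0 h in both mice without ligand than in any with it, where 10.1% of all genes were, and none was lower in both (20.1%). They were Mki67, Ccna2, Ccnb1, Cdk1, Aurkb, Plk1, Bub1, Bub1b, Cdc20, Kif11, Birc5 and Tpx2, so several genes with a larger decline without ligand also started higher there. Top2a did not: it started at 439 and 564 CPM without ligand and at 451, 502, 520 and 574 CPM with it. Of the S phase genes, 3 began above (Rrm1, Rrm2 and Ccne1) and 2 below (Pcna and Pola1). The part of these starting levels in the 8 h changes was not tested.

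Some S phase genes are given for their values, since their count was near that of all genes. Rrm1, the large subunit of ribonucleotide reductase, stood in MPP at 315, 356 and 345 CPM at 0 h and at 100, 109 and 230 CPM at 8 h with ligand in young mice 1, 2 and 3, and went from 377 and 478 CPM to 64.3 and 71.7 CPM without it. Fen1, the flap nuclease, went from 201, 270 and 229 CPM to 98.7, 99.5 and 166 CPM with ligand and from 159 and 213 CPM to 26.0 and 42.5 CPM without. Rrm1 was lower at 8 h in every mouse of either course, by more without ligand. Fen1 was lower in both mice without ligand and, by less, in the 3 young mice with it. In old mouse 2 it was not lower, with a change of 0.08 on the log2(CPM + 1) scale. Cdt1 lay the other way: without ligand it stood at 98.1 and 183 CPM at 0 h and at 134 and 115 CPM at 8 h, higher in young mouse 4 and lower in old mouse 4. Ccne1 stood at 32.7, 30.9 and 22.6 CPM at 0 h in young mice 1, 2 and 3 and 22.5 CPM in old mouse 2, but at 80.2 and 64.5 CPM in young mouse 4 and old mouse 4. At 8 h it stood at 15.7, 8.65, 4.89 and 4.00 CPM with ligand and at 0 and 2.65 CPM without. Bub1b, a spindle checkpoint kinase, stood at 47.4, 105 and 139 CPM at 8 h with ligand, after 100, 103 and 132 CPM, so that only young mouse 1 was clearly lower; without ligand it went from 169 and 234 CPM to 24.4 and 58.9 CPM.

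**Figure D5:**
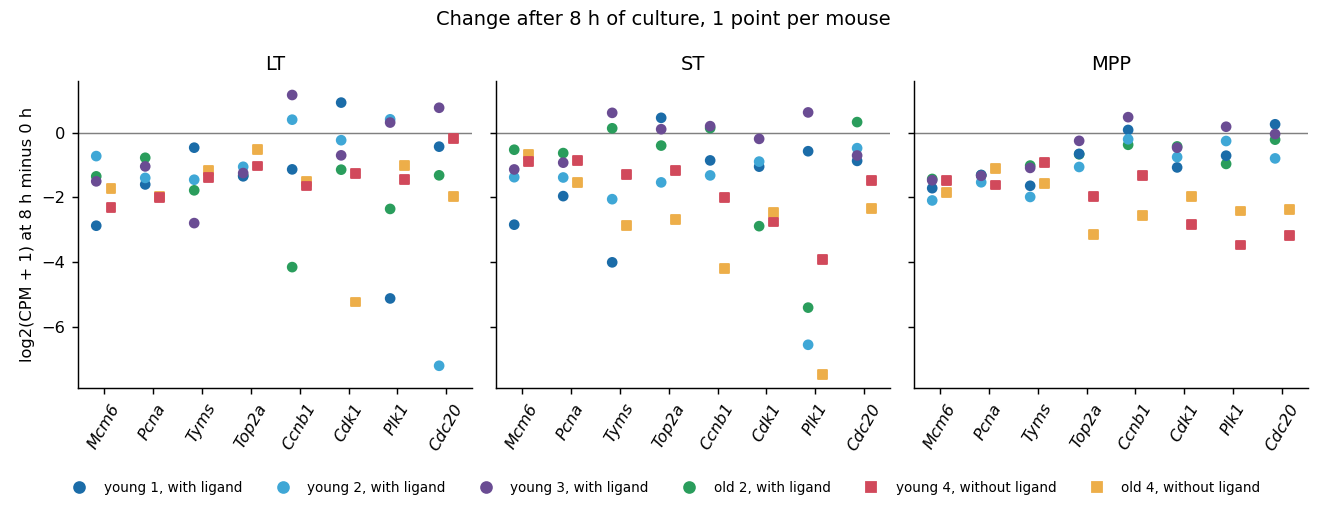
Change from 0 to 8 h in log2(CPM + 1) for 3 S phase genes (Mcm6, Pcna, Tyms) and 5 G2 and M genes in LT, ST and MPP, with 1 point per mouse, circles with ligand and squares without. In MPP the squares of Top2a, Ccnb1, Cdk1, Plk1 and Cdc20 lie below all circles, whereas those of Mcm6, Pcna and Tyms overlap with the circles.

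LT and ST did not show that separation to the same extent. In ST, 5 of 19 G2 and M genes lay above without overlap (11.4% of all genes) and 0 of 22 S phase genes, while 0 of 19 and 2 of 22 (Rfc4 and Lig1) lay below (9.64%). In LT, 1 of 19 and 1 of 22 lay above (7.81%), and 2 of 19 (Top2a and Bub1) and 3 of 22 (Mcm5, Rfc4 and Lig1) lay below (9.07%). With ligand, 6 of 19 and 13 of 22 were lower in all 4 mice in ST (21% of all genes), and 8 of 19 and 14 of 22 in LT (20.1%). Whether the populations differ in this respect was not tested.

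For the difference itself, edgeR on MPP alone called Cdc20 (2.65, SE 0.59, adjusted p = 0.0225) and Top2a (1.84, SE 0.44, adjusted p = 0.0347) higher with ligand, where 1.53% of 12875 genes were called higher. The median difference was 1.54 over the G2 and M genes and 0.01 over the S phase genes, beside 0.25 over all genes. Mcm6 (-0.03) and Pcna (-0.07) were not called. With the mouse as a block, Rrm1 (1.52), Fen1 (1.70) and Plk1 (2.47) were called as well, 5 members in all, beside 2.84% of all genes. Neither Cdc20 nor Top2a was called without young mouse 2, without young mouse 4 or without old mouse 2, and 1 of them was called without young mouse 3 or without old mouse 4. Neither was called by the fit of 3 populations together. That fit called 0 members in LT, ST and MPP, beside 0.0347%, 0.0903% and 0.0625% of all genes, with 4, 0 and 0 at an unadjusted p below 0.05 and 0 by DESeq2.

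Other genes of the cycle were counted from 3 lists that share no gene with the members. Among 25 regulators (E2F, retinoblastoma, MuvB and Cdc25 genes among them), edgeR on MPP alone called none at 2, 8 or 12 h with ligand (0, 3 and 3 at an unadjusted p below 0.05) and 1, E2f3, lower without. As above, 0.423%, 0.764% and 0.666% of all genes were called lower at these times and 3.37% without ligand. With the mouse as a block, Gmnn, the inhibitor of Cdt1, was called lower at 8 h (-1.50) and Fbxo5 at 12 h (-1.77), and Gmnn, E2f3 and Wee1 without ligand. Of 24 further S phase genes, 3 were called lower at 8 h with ligand: Dut, which clears dUTP (-2.52, SE 0.31, adjusted p = 0.000147), Rfc5 (-1.27) and Rfc3 (-1.62), both clamp loader subunits. With the block 10 of the 24 were called lower at 8 h, where 2.92% of all genes were; it added Slbp, Rfc2, Rpa2, Ung, Pold1, Rpa1 and Chaf1b. The block's counts were 4 at 2 h (1.71%) and 6 at 12 h (2.8%), against 2 and 3 without it. Without ligand 4 of them were called lower, among them Dut (-3.43), and 5 with the block (6.1%). Of 28 further G2 and M genes, 1 was called lower with ligand at 8 h, the microtubule regulator Stmn1 (-1.84, adjusted p = 0.00524), and 6 without ligand, among them Stmn1 (-1.94), Cdca3 (-1.88) and Ube2c (-1.94). With the block these counts were 1 and 9, with 1 at 2 h (Ube2c) and 5 at 12 h (Stmn1, Hmgb2, Pbk, Cdca3 and Cdca5), against 0 and 2 without it. The kinesin Kif4 was the only one of the 77 genes called for the difference with ligand (5.01, SE 0.94, adjusted p = 0.00662). The lists were drawn up with earlier results of these data known.

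In MPP, marker sums of MPP itself and of primary granule, erythroid and T and NK cells were lower at 8 h in 6 of 6 mice, and those of the other lists were not. The summed level of 4 primary granule genes (Mpo, Elane, Prtn3 and Ctsg) was lower at 8 h than at 0 h in 6 of 6 mice in each population, and in MPP went from a range of 1890 to 16410 CPM to a range of 584 to 3231 CPM, with 3 of the 4 genes lower in every mouse. The 3 markers of MPP itself went in MPP from a range of 329 to 2543 CPM to a range of 92.5 to 1287 CPM, with the sum lower in 6 of 6 mice and 3 of 3 genes lower in every mouse. The 7 erythroid markers in MPP went from 97.4 to 1064 CPM to 48.4 to 347 CPM, lower in 6 of 6 mice, with 4 of 7 genes lower in every mouse. The 5 T and NK cell markers were summed lower in 6 of 6 mice in each population, in MPP from 89.1 to 269 CPM down to 6.36 to 55.7 CPM. In MPP the 5 B cell markers were summed lower in 4 of 6 mice and the 3 macrophage markers in 2 of 6. The 6 LT markers were summed lower there in 3 of 6 mice, and so were the 2 markers of all 3 populations, Kit and Ly6a. The 6 neutrophil genes in MPP were summed lower in 1 of 6 mice, ranging from 98.8 to 64446 CPM at 0 h and from 201 to 78555 CPM at 8 h. The part of these transcripts in the results was not tested. In MPP of young mouse 3, where they summed to 98.8 CPM at 0 h, the S phase sum went from 5527 to 2258 CPM.

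Likeness was described last. The genes other than the members whose log2(CPM + 1) followed the members' mean z score most closely over the 108 libraries were found by Pearson's r, as a description with no test. Among 10222 genes, they were the histone gene Hist1h2ao (0.84), H2afx (0.83), which encodes the histone variant of DNA damage foci, 2810417H13Rik (0.80), the kinetochore gene Spc24 (0.80) and Cdca3 (0.80); the median over all genes was 0.13. Of the 77 listed cycle genes, 22 were among the 100 with the highest r. Libraries share mice and depth, which such an r also reflects.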

How the data were processed

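Bulk RNA was sequenced from sorted LT, ST and MPP cells of 6 mice. The authors deposited expected counts, 1 value per gene symbol and library; the submitters' processing notes name RSEM, without a version, and the genome build mm9, and other steps are not given in the sources used here. Of the values, 89.5% are whole numbers. Of 127 libraries, 6 with 7 to 41 counts (LT of old mouse 2) were dropped, and technical repeats of the rest were summed to 108 libraries. Summed expected counts were rounded to whole numbers and tested with edgeR 4.0.16 in R 4.3.3 (TMM scaling, filterByExpr, quasi-likelihood F test, 2-sided, Benjamini-Hochberg over all genes tested, threshold 0.05). DESeq2 1.42.0, its size factors in edgeR, no filter, the deepest repeat, mouse as a block, and leaving out each mouse were alternatives; fits of 1 population alone were added after seeing the data. CPM is the count per 1000000 counts of the library, with a pseudocount of 1 on log2 scales. Totals of summed libraries run from 990831 to 11764593 counts, which limits low genes most.

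The members and lists were chosen with earlier results of these data known. Genes were named by a rule: called members (at most 8 by smallest p), a set of 13, the extremes of a role group, and up to 4 called genes of each list; other members are given to show the course of their role. Mouse numbers mark the same animal, per the labels. Deviations from group means correlated within a mouse at a median of 0.30 at 0 h (12 of 12 pairs over 0.1) and 0.21 over the course with ligand (472 of 630), against -0.05 and -0.15 between mice, over 10263 genes. Scripts were tested on simulated data.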

Additional observations from a re-analysis of the deposited data

Results flagged for a closer look

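In MPP, the change of Cdc20 from 0 to 8 h differed between mice with and without ligand by 2.65 on the log2 scale (edgeR test of the difference, adjusted p = 0.0225), and that of Top2a by 1.84 (adjusted p = 0.0347). In both genes the change was lower in 2 of 2 mice without ligand than in any of 4 mice with it. Before culture Cdc20 already stood higher in the mice without ligand, at 244 and 190 CPM against 139 to 166 CPM, whereas Top2a overlapped. Mouse and ligand cannot be told apart here. Among 45 groups of 4 samples that were examined, none had a highest or lowest sample past the critical value of 0.829 for 4 samples. With so few samples this rule is strict, and young mouse 3, whose libraries stand apart as given above, was not flagged by it. The absence of outlying samples is therefore not shown.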

How the results depend on the processing

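With 3 populations in 1 fit, the count of called members, 0 in all 22 comparisons, was the same with another scaling, without the filter, with the deepest repeat and with the mouse as a replicate block. DESeq2 gave 1, 4 and 6 in LT at 2, 8 and 12 h, 1 and 4 in ST at 2 and 12 h, 1 for LT against MPP at 8 h, and 2, 1 and 1 in LT, ST and MPP without ligand. Leaving out 1 mouse gave 0 to 2 in LT at 8 h and 0 to 1 in LT at 12 h (young mouse 3), 0 to 1 in ST at 12 h (young mouse 1), and 0 to 1 in LT without ligand and for the difference with ligand in LT (old mouse 4). Fitted alone, MPP gave 11 at 8 h, 8 at 12 h, 15 without ligand and 2 for the difference with ligand. With the replicate block as well it gave 8 at 2 h, 16, 13, 24 and 5, and 8 for 8 against 2 h. In the MPP fit without block, the 2 h count of 0 became 7 with DESeq2 and 0 to 1 with 1 mouse left out. The 8 h count became 7 without the filter and 0 to 8 with 1 mouse left out; at 12 h it was 5 with the deepest repeat, 3 without the filter and 0 to 4; without ligand 24 with DESeq2 and 5 to 13; for 8 against 2 h 8 with DESeq2 and 0 to 2; for the difference 4 with DESeq2, 1 without the filter and 0 to 2. The cause of these shifts was not tested. Of changes of single named genes, 362 kept their side of the threshold, 60 lost it, 11 gained it and 0 reversed. The block changed no call of a member with 3 populations together or in LT and ST fitted alone; calls it added among further cycle genes in MPP stand beside them. No paired analysis was possible between ages because each mouse has 1 age. Depth, with a lowest total of 990831 counts, leaves low genes such as Ccne1 listed at 0 in single libraries, where a change was not detectable.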
